A study of Sus scrofa with 9 samples.

Results

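The genes described here are cell cycle and proliferation genes, a set of 43 names that covers DNA replication, mitotic kinases and cyclins, kinetochores and the spindle. They were chosen by name and not by a rule on measured values, though with earlier results of these data known. Of the 43 names, 35 stood as a gene name in the deposited table of 21357 genes from abdominal aortas of Tibetan minipigs, all male. Another 6 were listed under an Ensembl identifier with a matching description, and these are given beside the 35. They were MKI67 (ENSSSCG00000026302), CDK1 (ENSSSCG00000010214), AURKA (ENSSSCG00000007493), KIF23 (ENSSSCG00000004969), PRC1 (ENSSSCG00000037307) and RRM2 (ENSSSCG00000031741). CCNA2 and MCM5 were not analysed here. None of the 35 names had more than 1 row.

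The table held 9 RNA-seq libraries in 3 groups of 3. NC pigs were normal controls on a normal diet for 24 weeks, and H24 pigs had atherosclerosis after 24 weeks of high-fat diet. Per the methods, the diet of the H24 pigs also held added cholesterol. H8 pigs were labelled as hypercholesterolemia after 8 weeks of high-fat diet. NC and H24 pigs were 3 to 4 months old at purchase, with 3 of 5 pigs sequenced in each of these groups. The H8 pigs are known here from the labels alone, and their age is not stated. Whether their diet was that of the H24 pigs, with the added cholesterol, is not stated either. H8 differed from NC in both diet and feeding time, so diet and age cannot be told apart in that comparison. For H24 against H8, feeding time and age cannot be told apart. For H8 nothing says that the libraries came from separate pigs, so p-values then measure only the spread between these samples.

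Cells that divide pass from G1 into S phase, where the MCM helicase opens replication origins, CDC45 and GINS2 join it, PCNA clamps the polymerases to DNA, and TYMS and RRM2 supply nucleotides. In mitosis, cyclin B with CDK1 drives entry, PLK1 and the aurora kinases build the spindle, BUB1 and BUB1B hold the checkpoint until chromosomes are attached, and UBE2C and CDC20 act in the complex that releases anaphase. Most cells of a healthy artery wall rest outside the cycle, and in atherosclerosis both lesion macrophages and smooth muscle cells are known to divide.

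The libraries held 44094263 to 75787978 counts, so that 3 counts, taken as the smallest signal, stood for 0.0396 to 0.0680 CPM (counting error only). Markers of the labelled tissue were present in every library, with smooth muscle markers (8 genes, ACTA2 and MYH11 among them) summing to 12015 to 14228 FPKM in NC and 10328 to 14008 in H8. H24 replicate 3 stood apart. Its smooth muscle sum was 1758 FPKM, against 8277 and 11808 in H24 replicates 1 and 2. Its chi-square per degree of freedom against each of these libraries was 1220, while all other pairs within a group gave 182 to 480. The calls and medians that H24 replicate 3 moved are therefore given below with and without it. In whole tissue, fewer cells of a type and less RNA per cell cannot be told apart.

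The cell cycle genes were low in the normal aorta. The NC mean was under 1 FPKM (fragments scaled by transcript length and library depth) in 17 of the 35 genes, between 1 and 5 FPKM in 13 and at least 5 FPKM in 5, with a median of 1.12 FPKM. The highest NC means were 9.94 ± 3.11 FPKM (SD, n = 3) for NUF2, a kinetochore protein, 9.82 ± 1.28 for MCM7, a subunit of the replicative helicase, and 6.75 ± 1.07 for PCNA. The order of NUF2 and MCM7 was within their spread. Lowest by the mean over all 9 libraries stood the kinase MELK, with 0.0402, 0.0308 and 0.0665 FPKM in NC replicates 1 to 3, the origin licensing factor CDC6, with 0.133, 0.0331 and 0.107, and the checkpoint kinase TTK, with 0.212, 0.0577 and 0.0838. By the NC mean alone, CENPE (0.108 FPKM) was below TTK (0.118). MELK, CDC6 and TTK rested on 16 to 76 counts a library in NC. In H8 replicates 1 to 3, MELK had 0.123, 0.0482 and 0.0628 FPKM, CDC6 0.141, 0.0294 and 0.181, and TTK 0.238, 0.0432 and 0.148. In H24 replicates 1 to 3, MELK had 0.0801, 0.0135 and 0.605 FPKM, CDC6 0.0972, 0.134 and 0.318, and TTK 0.166, 0.0656 and 0.430. The fewest counts of any of the 35 genes were 4, for MELK in H24 replicate 2.

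Most of these genes shared a pattern across single libraries. H24 replicate 3 held the highest FPKM of the 9 libraries in 29 of the 35 genes, while 29.2% of the 14721 genes with a mean of at least 0.1 FPKM were highest there. In 14 of the 35, it exceeded the next library by more than 2-fold, a count not made over all genes. The median of its level over the NC mean was 2.89-fold. H8 replicate 2 was lowest of its group in 29 of the 35 genes (51.4% of those 14721 genes), and NC replicate 2 was lowest of its group in 31 (37.4%).

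**Figure D1:**
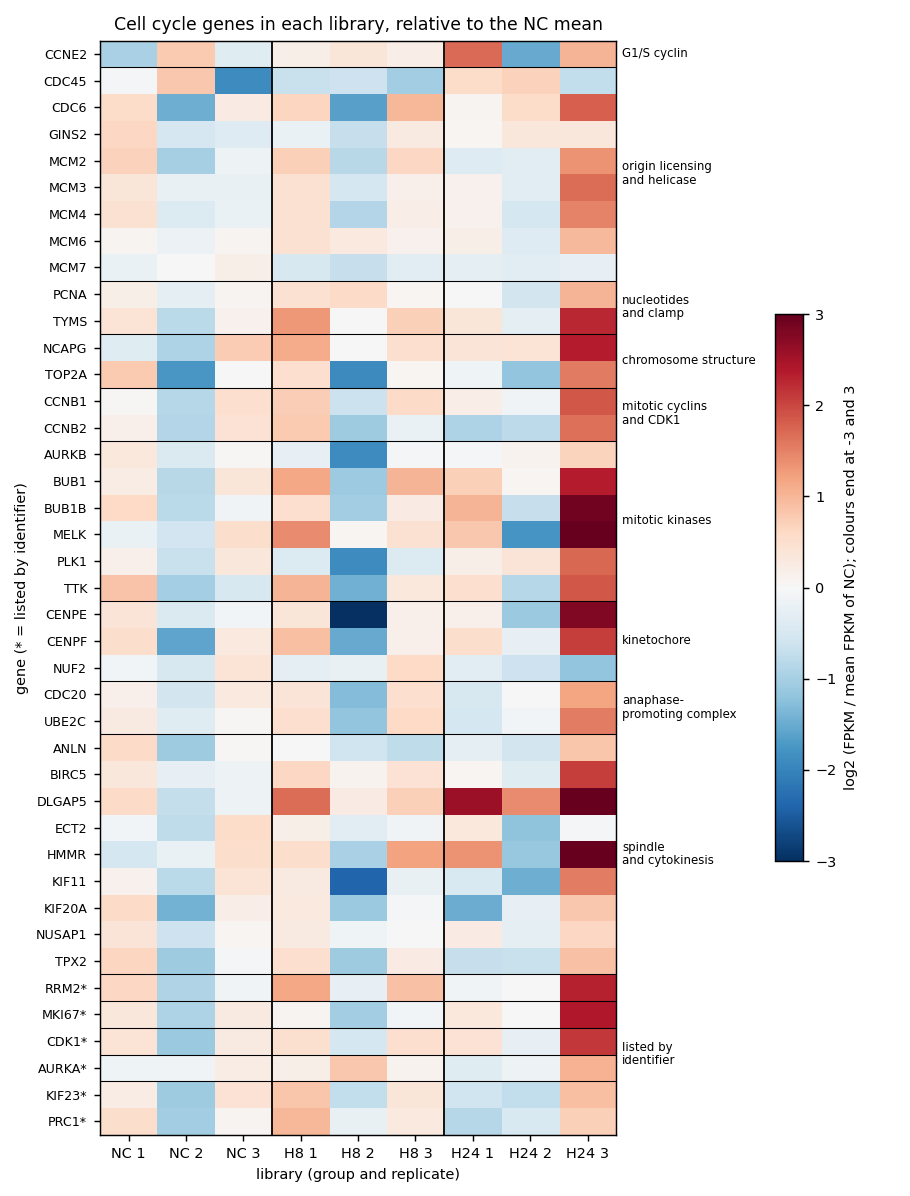
Each cell is the log2 ratio of a gene's FPKM in 1 library to its NC mean, with genes in rows by role and the 9 libraries in columns; colours end at -3 and 3. The column of H24 replicate 3 is red in nearly every row, with a median of 1.53, while NC replicate 2 and H8 replicate 2 are mostly blue, with medians of -0.66 and -0.83.

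Expressed as the median log2 ratio to the NC mean over the 35 genes, NC replicates 1 to 3 stood at 0.31, -0.66 and 0.08. H8 replicates stood at 0.47, -0.83 and 0.20, and H24 replicates at 0.13, -0.35 and 1.53. The H8 values and the first 2 H24 values therefore lay close to or within the range of the control pigs, and H24 replicate 3 lay above all others. In that library the 24 mitosis genes had a median of 1.68 and the 11 G1/S and replication genes a median of 1.01. The number of the 35 genes above the NC range was 30 in H24 replicate 3, 8 and 3 in H24 replicates 1 and 2, and 19, 2 and 11 in H8 replicates 1 to 3. Among the genes with a mean of at least 0.1 FPKM, 38.6% were above the NC range in H24 replicate 3, 35.3% and 29.9% in H24 replicates 1 and 2, and 21.5%, 21.4% and 23.9% in H8 replicates 1 to 3. The share of cell cycle genes thus lay above that of the table in H24 replicate 3 and in H8 replicates 1 and 3, and below it in the other 3 libraries.

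MKI67, which encodes the proliferation antigen Ki-67, followed this pattern. Its FPKM was 1.37, 0.572 and 1.32 in NC, 1.15, 0.530 and 1.02 in H8, and 1.36, 1.10 and 5.72 in H24. H24 replicates 1 and 2 were inside the NC range, and replicate 3 was 5.27-fold above the NC mean. TOP2A, the topoisomerase that untangles chromosomes, had 1.3, 0.225 and 0.752 FPKM in NC, 1.08, 0.202 and 0.785 in H8, and 0.700, 0.335 and 2.25 in H24. CDK1, the kinase of mitotic entry, had 0.271, 0.0948 and 0.248 in NC, 0.286, 0.141 and 0.289 in H8, and 0.277, 0.173 and 0.882 in H24. For all 3 genes the groups overlapped, and replicate 2 was the lowest library within NC and within H8.

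The same held for CCNB1, the mitotic cyclin, with 0.566, 0.301 and 0.780 FPKM in NC, 0.910, 0.352 and 0.815 in H8, and 0.630, 0.513 and 2.0 in H24. MCM2, another helicase subunit, had 2.59, 0.807 and 1.45 in NC, 2.65, 0.912 and 2.51 in H8, and 1.23, 1.27 and 4.11 in H24. PCNA, the replication clamp, had 7.59, 5.54 and 7.13 in NC, 9.32, 10.1 and 7.06 in H8, and 6.82, 4.59 and 13.6 in H24. PCNA was the one among these 6 genes in which H8 replicate 2 was the highest H8 library.

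**Figure D2:**
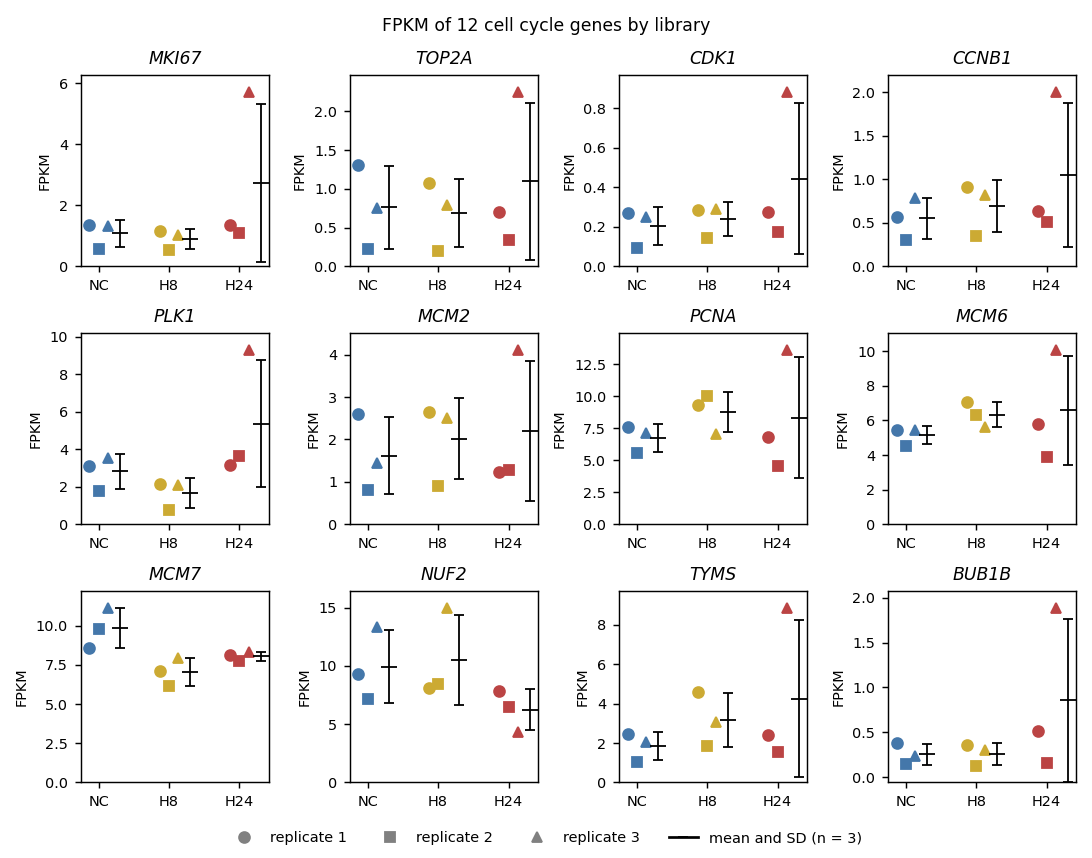
FPKM of 12 cell cycle genes (vertical axis) in NC, H8 and H24 (horizontal axis), each symbol 1 library, with the group mean and SD (n = 3) in black. H24 replicate 3 (triangle) is the highest point in 10 of the 12 genes; in NUF2 it is the lowest, and MCM7 is highest in NC replicate 3.

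For H24 against NC, the comparison of atherosclerotic with normal aorta at the same feeding time, 1 of the 35 genes was up-regulated and none was down-regulated. The thresholds were a log2 fold change beyond 1 and an unadjusted p under 0.05 in edgeR's quasi-likelihood test on the counts. The same thresholds called 9.95% of the 14828 genes tested higher and 1.52% lower. No member and no gene of the table passed a Benjamini-Hochberg adjusted p of 0.05 in this edgeR test, while 1634 genes of the table (11.0%) were higher and 421 (2.84%) lower at an unadjusted p under 0.05. DLGAP5 was the 1 gene of the 35 to pass it. With H24 replicate 3 left out, 290 genes of the table were called higher and 16 lower by adjusted p in edgeR, none of them among the 35 genes. DESeq2 called 879 genes higher and 75 lower by adjusted p, DLGAP5 among them. Of the 35 genes, 31 had a positive and 4 a negative log2 fold change, with a median of 0.58, while the median of all genes tested was 0.01. Without H24 replicate 3, 33 were tested, 14 were positive and 19 negative, and the median was -0.11. MELK and CENPE passed the level filter, a mean of 0.1 FPKM, only through that library. Their positive values in the full fit were thus favoured by the filter. The 41 genes with those listed by identifier also held 1 call. Without H24 replicate 2, the call count of the 35 genes was 6 (BUB1, BUB1B, DLGAP5, HMMR, MELK and TYMS), while 1795 of 14775 genes tested were called higher. Without NC replicate 3 it was 2 (DLGAP5 and NCAPG), while 1015 of 14877 genes tested were called higher.

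The up-regulated gene was DLGAP5, a protein of the mitotic spindle. Its FPKM was 0.205, 0.0827 and 0.123 in NC, 0.439, 0.162 and 0.224 in H8, and 0.810, 0.365 and 2.31 in H24. Every H24 library was above every NC library, and H8 lay between with overlap. The log2 fold change of H24 over NC was 3.06 (SE 0.75, adjusted p = 0.153, edgeR). Leaving out each of the 6 libraries in turn kept the call, with log2 fold changes of 2.07 to 3.48. Beyond DLGAP5, none of the 35 genes had all H24 libraries above all NC libraries, where 12.8% of the genes tested did.

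**Figure D3:**
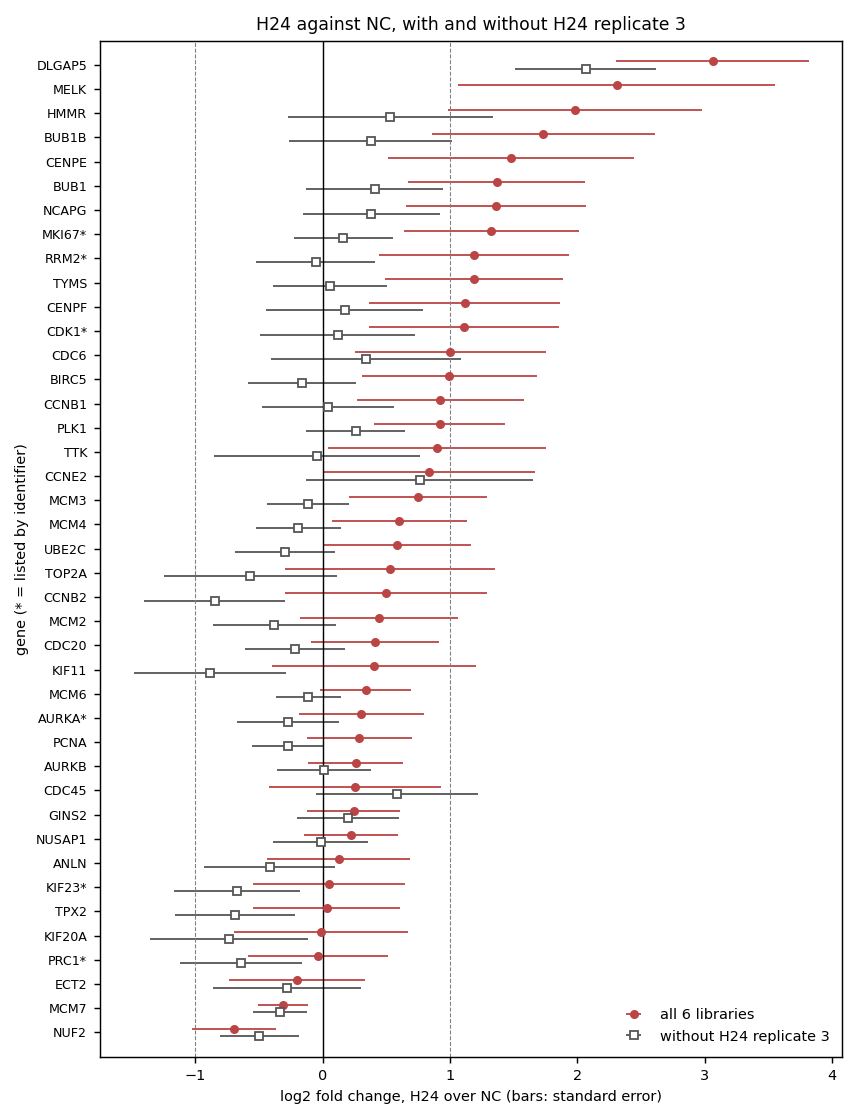
Log2 fold change of H24 over NC (horizontal axis, bars are the standard error) for each of the 41 cell cycle genes (vertical axis), from all 6 libraries (red) and without H24 replicate 3 (open squares). DLGAP5 stays above 2 in both, while most of the other open squares move to within 1 of zero; MELK and CENPE have no open square because they fell below the level filter.

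DLGAP5 has a far more abundant neighbour. It lies on chromosome 1 at 184496744 to 184550091 on the minus strand (Sscrofa11.1), and LGALS3, which encodes galectin-3, a protein abundant in macrophages, ends 588 bases away on the plus strand at 184478643 to 184496155. The 3′ ends of the genes face each other, and whether the libraries kept strand is not stated. LGALS3 had 11.9, 10.2 and 8.66 FPKM in NC, 82.3, 22.4 and 43 in H8, and 143, 79.0 and 1454 in H24. In all 3 groups the libraries of the 2 genes stood in the same order, except that the lowest NC library was replicate 2 for DLGAP5 and replicate 3 for LGALS3. DLGAP5 amounted to 0.813% to 1.71% of LGALS3 in NC, 0.520% to 0.723% in H8 and 0.159% to 0.567% in H24. The part of reads from the neighbouring gene in the DLGAP5 result was not tested.

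**Figure D4:**
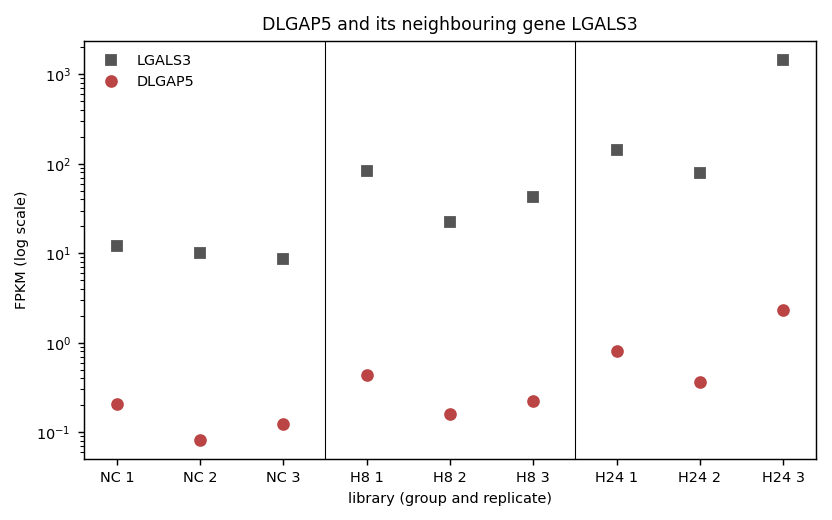
FPKM on a log scale (vertical axis) of DLGAP5 (circles) and LGALS3 (squares) in each of the 9 libraries (horizontal axis). Both genes are higher in every H24 than in every NC library, and LGALS3 lies 58.4- to 217-fold above DLGAP5 in 8 libraries and 631-fold above it in H24 replicate 3.

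By role, the mitotic kinases had positive log2 fold changes in 6 of 6 genes for H24 over NC, with a median of 1.14, and none was called. Leaving out H24 replicate 3 left 4 of 5 positive and a median of 0.26. MELK passed the level filter only through that library, so its positive value was favoured by the filter. BUB1B, a checkpoint kinase, had 0.383, 0.146 and 0.235 FPKM in NC and 0.516, 0.159 and 1.89 in H24, a log2 fold change of 1.73 (SE 0.87, adjusted p = 0.442, edgeR). With H24 replicate 3 left out it was 0.38 (adjusted p = 0.91). BUB1, its partner at the kinetochore, had 1.37 (SE 0.69, adjusted p = 0.444), and 0.41 without that library. H24 replicate 2 was inside the NC range for both kinases, so the groups overlapped. MELK was above the NC range in H24 replicates 1 and 3, at 0.0801 and 0.605 FPKM, and below it in replicate 2, at 0.0135.

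The 3 kinetochore genes differed among themselves. CENPE, the motor that moves chromosomes to the spindle equator, had 0.741 FPKM in H24 replicate 3, against 0.00864 to 0.143 in the other 8 libraries. CENPF had 1.46 FPKM there, against 0.115 to 0.641 elsewhere. NUF2, part of the complex that grips microtubules, went the other way, with 9.34, 7.17 and 13.3 FPKM in NC, 8.08, 8.45 and 15 in H8, and 7.86, 6.46 and 4.36 in H24. H24 replicate 3 was thus the highest library for CENPE and CENPF and the lowest for NUF2.

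The 9 genes of the spindle and of cytokinesis, the final split of the cell, had a median log2 fold change of 0.23 for H24 over NC, with 7 positive. Leaving out H24 replicate 3 turned the median to -0.28, with 2 positive. HMMR, a spindle protein that also binds hyaluronan, had 0.114, 0.144 and 0.238 FPKM in NC and 0.419, 0.0751 and 1.51 in H24, a log2 fold change of 1.98 (SE 1.0, adjusted p = 0.442, edgeR), and 0.53 without H24 replicate 3. BIRC5, which encodes survivin, had 6.79 FPKM in H24 replicate 3, against 1.24 to 2.48 in the other libraries. KIF20A, a kinesin of cytokinesis, had a log2 fold change of -0.01 and TPX2, which activates aurora A, of 0.03. ECT2, a regulator of the cleavage furrow, was highest in NC replicate 3, at 0.647 FPKM, against 0.190 to 0.550 in H24.

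UBE2C and CDC20, both acting with the anaphase-promoting complex, had 13.9 and 2.55 FPKM in H24 replicate 3. In H24 replicates 1 and 2, UBE2C had 3.34 and 4.57 FPKM, against 3.74 to 5.79 in NC. For CDC20 these libraries had 0.803 and 1.13 FPKM, against 0.759 to 1.36 in NC. NCAPG, a condensin subunit, had 1.96 FPKM in H24 replicate 3, and its 0.499 and 0.508 in the other H24 libraries lay inside the NC range of 0.201 to 0.646.

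Among the 11 genes of G1/S and replication, 10 had a positive log2 fold change for H24 over NC, with a median of 0.44, and none was called. Leaving out H24 replicate 3 turned the median to -0.11, with 5 positive and 6 negative. TYMS, thymidylate synthase, had 2.47, 1.06 and 2.05 FPKM in NC, 4.59, 1.87 and 3.07 in H8, and 2.40, 1.53 and 8.85 in H24. RRM2, listed by identifier, had 2.06, 0.716 and 1.26 in NC, 3.01, 1.14 and 2.47 in H8, and 1.26, 1.36 and 6.62 in H24. Both nucleotide genes were highest in H24 replicate 3, and their other H24 libraries lay inside the NC range. MCM3 and MCM4 had 9.09 and 9.61 FPKM in H24 replicate 3, against 1.95 to 3.91 and 1.85 to 4.70 in the other 8 libraries.

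The helicase subunits did not move together. MCM7 had 8.55, 9.81 and 11.11 FPKM in NC, 7.07, 6.12 and 7.92 in H8, and 8.14, 7.73 and 8.30 in H24. Every H24 library was below every NC library, with a log2 fold change of -0.31 (SE 0.20, adjusted p = 0.542, edgeR), and 7.8% of the genes tested were placed that way. MCM7 overlaps COPS6 on the opposite strand, with 6.13-fold its mean FPKM, and TAF6 on the same strand, with 1.13-fold. The part of reads from these genes in the MCM7 level was not tested. MCM6 had 5.43, 4.54 and 5.44 FPKM in NC and 5.79, 3.91 and 10.1 in H24. CDC45 and the G1/S cyclin CCNE2 did not follow the order of libraries seen in most members. CDC45 had 5.19, 9.48 and 1.45 FPKM in NC, and it lies inside the interval of MED15, a gene on the opposite strand with 6.36-fold its mean FPKM. CCNE2 had 1.21, 0.132 and 0.754 FPKM in H24.

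For H8 against NC, which asks what was changed early in high-fat feeding, none of the 33 genes tested was called in either direction in edgeR's test (MELK and CENPE were below the level filter). The same thresholds called 5.11% of 14336 genes higher and 2.27% lower. By adjusted p under 0.05, 2 genes of the table (0.014%) were called higher and 2 (0.014%) lower, none of them among the 33, and DESeq2 called 445 and 171, with no call among the 33. Higher and lower calls over the table were 733 and 326, against 576 and 459 with scaling by library size alone and 454 and 505 with limma on log2(FPKM + 0.1). Of the 33, 24 were positive and 9 negative, with a median log2 fold change of 0.21. That median was -0.03 without H8 replicate 1, 0.40 without H8 replicate 2, 0.42 without NC replicate 1 and 0.02 without NC replicate 2, and 0.07 with scaling by library size alone. Without H8 replicate 2, BUB1, DLGAP5 and TYMS were called higher, as were 591 of 14384 genes over the table. Without NC replicate 1, DLGAP5 and TYMS were, and 664 of 14312 over the table. Without NC replicate 3, NCAPG was called higher and CDC45 lower, against 569 and 313 of 14363 genes over the table.

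MCM6 and PCNA passed an unadjusted p under 0.05 for H8 against NC without reaching a 2-fold change, where 8.89% of the genes tested passed it with a higher and 5.92% with a lower level in H8. MCM6 had 7.06, 6.34 and 5.60 FPKM in H8, every library above the 4.54 to 5.44 of NC, with a log2 fold change of 0.45 (SE 0.17, adjusted p = 0.303, edgeR). With scaling by library size it was 0.29 (adjusted p = 0.461) and above an unadjusted p of 0.05. PCNA had a log2 fold change of 0.54 (SE 0.23, adjusted p = 0.335), and one of its 3 H8 libraries was inside the NC range. MCM7, in contrast, was lower in every H8 than in every NC library, with a log2 fold change of -0.35 (SE 0.15, adjusted p = 0.35). Of the genes tested, 6.91% had all H8 libraries above and 15.9% all H8 libraries below those of NC.

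For H24 against H8, 24 against 8 weeks of high-fat diet, age was not told apart from feeding time. Here 2 of the 35 genes were up-regulated and none was down-regulated. Of 14788 genes, 7.22% were called higher and 3.05% lower. No member passed the adjusted threshold in edgeR, and 2 genes of the table (0.0135%) did. Higher and lower calls over the table were 1068 and 451, against 1447 and 290 with scaling by library size alone. The median log2 fold change of the 35 genes was 0.43, with 28 positive and 7 negative. Leaving out H24 replicate 3 gave a median of -0.37, with 8 of 33 positive, and the call was a different gene, CDC45 (1.21, adjusted p = 0.341). MELK and CENPE again passed the level filter only through that library. Without H8 replicate 2, and likewise without H8 replicate 3, none of the 35 genes was called higher. Of all genes tested, 556 of 14892 and 617 of 14752 were called higher in these fits. This comparison shares its H24 libraries with H24 against NC and its H8 libraries with H8 against NC.

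PLK1, the polo-like kinase of mitotic entry and spindle assembly, had the smallest p of the 35 genes in this comparison. Its FPKM was 3.13, 1.78 and 3.56 in NC, 2.13, 0.760 and 2.11 in H8, and 3.16, 3.66 and 9.28 in H24. Every H24 library was above every H8 library, a placement found in 15.5% of the genes tested. H8 and NC overlapped. The log2 fold change of H24 over H8 was 1.53 (SE 0.56, adjusted p = 0.341, edgeR), against 0.92 (SE 0.51, adjusted p = 0.488) for H24 over NC, or 0.26 without H24 replicate 3, and -0.64 (SE 0.44, adjusted p = 0.537) for H8 over NC. The call was lost without H24 replicate 3 (0.89, adjusted p = 0.529), without H8 replicate 2 (1.21, adjusted p = 0.663) and without H8 replicate 3 (1.69, adjusted p = 0.567). PLK1 had no more abundant gene within 5000 bases.

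DLGAP5 was the other call for H24 over H8, at 1.89 (SE 0.72, adjusted p = 0.341, edgeR), with overlapping groups. It lost the call at 0.92 without H24 replicate 3, 1.66 without H8 replicate 2 and 1.73 without H8 replicate 3. NUF2 passed the unadjusted p but not the 2-fold change, at -0.92 (SE 0.34, adjusted p = 0.341), with every H24 library below every H8 library, as in 6.31% of the genes tested. Without H24 replicate 1 and without H8 replicate 1 it passed both thresholds, at -1.10 and -1.09. With scaling by library size, NUF2 was at -0.74 (adjusted p = 0.376) and above an unadjusted p of 0.05. Of the genes tested, 8.68% were higher and 5.04% lower in H24 than in H8 at an unadjusted p under 0.05.

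The plots and values above stand beside large differences in cell type markers. For H24 over NC, all 6 leukocyte markers tested and all 8 macrophage markers were up-regulated. CD68, a macrophage lysosomal protein, had a log2 fold change of 5.60 (SE 1.17, adjusted p = 0.132, edgeR), and PTPRC, the pan-leukocyte marker CD45, of 5.32 (adjusted p = 0.132). The medians of the leukocyte and macrophage lists were 5.01 and 4.96, and without H24 replicate 3 they were 3.25 and 2.57, with all 6 and all 7 markers tested still up-regulated. For H8 over NC, all 6 leukocyte and 4 of 7 macrophage markers tested were up-regulated. The macrophage sum was 15.1 to 16.7 FPKM in NC, 81.8, 13.5 and 44.3 in H8, and 146, 83.2 and 963 in H24. The leukocyte sum was 32.5 to 40.6 in NC, 187, 38.4 and 99.3 in H8, and 320, 207 and 1308 in H24. In H24 replicates 1 and 2 both sums were thus above those of every NC library, while the 35 cell cycle genes summed to 73.3 and 64.2 FPKM there, against 61.4 to 84.3 in NC. In H24 replicate 3 they summed to 145 FPKM. These sums rest in large part on the most abundant members, among them NUF2, MCM7 and CDC45, which did not follow most others. By gene, 8 and 3 of the 35 were above the NC range in H24 replicates 1 and 2, and 30 in replicate 3. In H8 replicates 1 to 3 these were 19, 2 and 11.

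T cell markers summed to 0.341 to 0.586 FPKM in NC, 1.09 to 1.78 in H8, and 5.45, 18.7 and 24.7 in H24, and 7 of 8 were up-regulated for H24 over NC (5 of 7 without H24 replicate 3). CD3E, part of the T cell receptor, made up 15.8 FPKM of the sum in H24 replicate 2. There the cell cycle genes were lowest of the group in 22 of 35, a count not made over all genes. B cell markers summed to 5.23 to 6.26 FPKM in NC, 1.63 to 4.48 in H8 and 10.3 to 20.3 in H24. For H24 over NC, 1 of 3 tested was up-regulated, and for H24 over H8, 2 of 2. The defining B cell marker MS4A1 was listed at 0 in 5 libraries, at most 0.190 FPKM in the others, and was not tested. Osteoclast markers, which macrophages of lesions share in part, summed to 297 FPKM in H24 replicate 3 against 0.328 to 13.7 in the other 8. Smooth muscle markers were negative in 8 of 8 genes for H24 over NC without a call, with ACTA2 at -0.66 (adjusted p = 0.678) and MYH11 at -1.28 (adjusted p = 0.5). The endothelial marker PECAM1 was at -0.16 (adjusted p = 0.908).

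**Figure D5:**
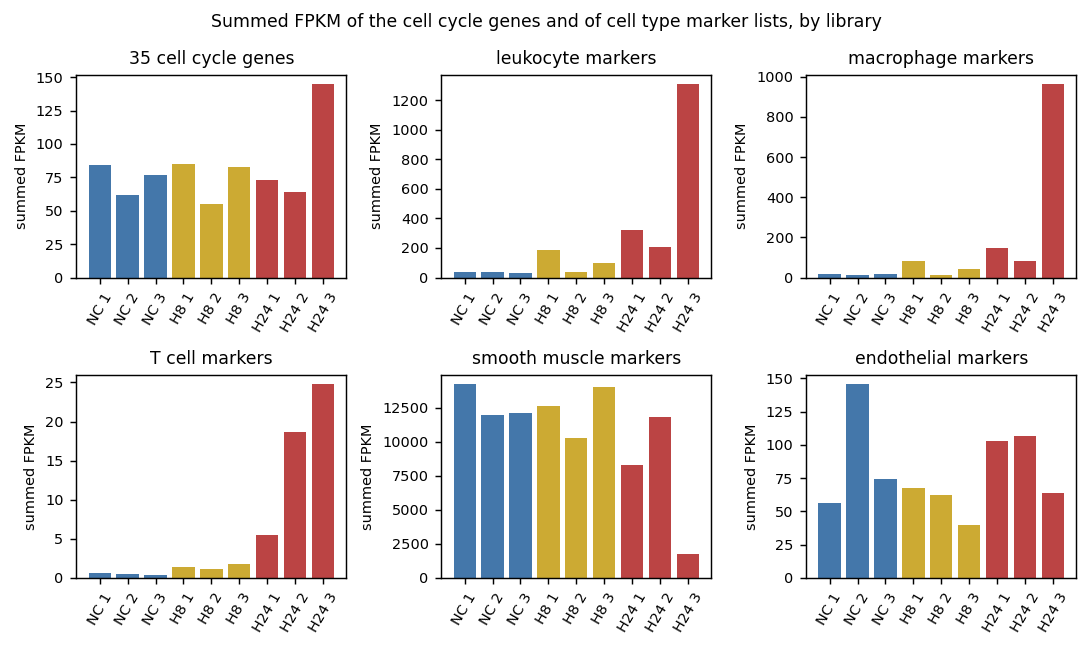
Summed FPKM (vertical axes from 0) of the 35 cell cycle genes and of 5 cell type marker lists in the 9 libraries, coloured by group. Leukocyte and macrophage sums are raised in H24 replicates 1 and 2 and in H8 replicates 1 and 3. There the cell cycle sum, in which the most abundant members weigh most, lies between 64.2 and 84.9 FPKM. H24 replicate 3 is highest for the cell cycle, leukocyte, macrophage and T cell sums and lowest for smooth muscle.

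In H24 replicate 3 the cell cycle genes were high together with the leukocyte, macrophage, T cell, B cell and osteoclast sums, while smooth muscle, erythroid and stress gene sums were the lowest of the 9 libraries. The part of leukocytes in that library's levels was not tested. Adipocyte markers summed to 89.7 to 157 FPKM in NC, 49.1, 140 and 50.2 in H8, and 106, 57.2 and 87.0 in H24. For H8 over NC, 3 of 4 adipocyte markers tested were down-regulated, with a median log2 fold change of -4.02, and for H24 over H8, 4 of 5 were up-regulated, with a median of 3.14. Their part in the comparisons with H8 was not tested. Immediate early and heat shock genes, which respond quickly to stress, summed to 337 to 1834 FPKM in NC and 617 to 3233 in H8. The low cell cycle levels of NC replicate 2 and H8 replicate 2 stood beside stress gene sums of 1417 and 2827 FPKM, neither the lowest nor the highest of their groups. Adipocyte sums were the highest of their group in both, at 157 and 140 FPKM. Yet 3 of the 4 adipocyte markers tested were lower in every H8 than in every NC library. The sum of H8 replicate 2 thus does not stand for the whole list. Erythroid sums were also the highest of their group in NC replicate 2 and H8 replicate 2, at 126 and 204 FPKM. The other libraries had 30.6 and 124 in NC and 45.6 and 48.2 in H8. Endothelial markers summed to 145 FPKM in NC replicate 2, against 56.4 and 74.3 in the other NC libraries, and to 62.2 in H8 replicate 2, against 67.3 and 39.4. The part of these markers in the low levels was not tested.

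Of the 6 genes listed by identifier, none was called for H24 over NC or H8 over NC. For H24 over NC, MKI67 had a log2 fold change of 1.32 (SE 0.69, adjusted p = 0.455), RRM2 of 1.19 (SE 0.74) and CDK1 of 1.11 (SE 0.74) in edgeR's test. With H24 replicate 3 left out these were 0.16, -0.05 and 0.12. AURKA, aurora kinase A, stood at 0.31, KIF23, a kinesin of the midbody, at 0.05 and PRC1, which bundles spindle microtubules, at -0.04. PRC1 was highest in H8 replicate 1, at 4.48 FPKM, and the other 5 were highest in H24 replicate 3. PTPRE, a phosphatase gene that ends 1671 bases from MKI67 on the opposite strand, had 10.2 FPKM in H24 replicate 3 and 0.882 to 3.51 in the other libraries.

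Regulators of the cycle were taken from a list of 131 further genes, of which 117 were found. For H24 over NC, 4 of 114 tested were up-regulated and 1 down-regulated, with a median log2 fold change of 0.28, against 9.95% and 1.52% of all genes tested, and none passed the adjusted threshold in edgeR. Without H24 replicate 3, 3 were up-regulated and 1 down-regulated, and the median was -0.08. The 41 other mitotic genes tested had 39 positive log2 fold changes and a median of 0.61, which became 18 of 40 and -0.05 without that library. The KEGG terms for cell cycle and DNA replication, with the 35 genes and the 6 listed by identifier left out, held 127 genes. Of these, 41 were also in the list of regulators, so the lists overlap. In the KEGG list, 3 of 123 tested were up-regulated and 2 down-regulated, with a median of 0.03, or -0.11 without H24 replicate 3. In both lists the share of up-regulated genes was below the 9.95% of the table.

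CDKN2B, which encodes p15, an inhibitor of the G1 kinases, was up-regulated in H24 over NC and kept that call without H24 replicate 3. Its FPKM was 0.199, 0.184 and 0.177 in NC, 0.117, 0.194 and 0.288 in H8, and 0.785, 0.578 and 1.35 in H24. All H24 libraries were above all other libraries. The log2 fold change was 2.25 (SE 0.44, adjusted p = 0.132, edgeR) over NC, 1.83 without H24 replicate 3, and 1.98 (SE 0.51, adjusted p = 0.336) over H8.

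CCND2, cyclin D2, which drives G1 kinases, was the gene down-regulated in H24 over NC. Its FPKM was 4.13, 21.8 and 28.2 in NC, 40.3, 26.3 and 23.2 in H8, and 2.35, 4.16 and 8.06 in H24. NC replicate 1 was inside the H24 range. The log2 fold change was -1.91 (SE 0.75, adjusted p = 0.331, edgeR) over NC and -2.81 (SE 0.49, adjusted p = 0.336) over H8, where the groups did not overlap. CCND3 was up-regulated over H8, at 1.06 (adjusted p = 0.336), and CCND1 was called in no comparison, at -0.35 for H24 over NC.

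Of the transcription factors that control cell cycle genes, E2F2, E2F8 and MYBL2 were up-regulated in H24 over NC. E2F8, which represses other E2F targets, had 0.0617, 0.0312 and 0.0365 FPKM in NC and 0.165, 0.224 and 1.28 in H24, a log2 fold change of 3.68 (SE 0.95, adjusted p = 0.163, edgeR), and 2.17 without H24 replicate 3. E2F2 had a log2 fold change of 3.39 (adjusted p = 0.22) over NC, and 1.51 without H24 replicate 3, with 1.98 FPKM in H24 replicate 3 and 0.0541 to 0.330 in the other libraries. MYBL2 had 10.8 FPKM in that library against 0.648 to 2.23 elsewhere, and its 1.76 (adjusted p = 0.344) over NC became 0.43, no longer called, without it. E2F1, at 0.70 (adjusted p = 0.719), and FOXM1, at 0.89 (adjusted p = 0.547), were not called.

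The other CDK inhibitors were not called in H24 over NC. CDKN1A, p21, stood at -0.29 (adjusted p = 0.815), CDKN1B, p27, at -0.86 (adjusted p = 0.431) and CDKN1C, p57, at -1.12 (adjusted p = 0.365). CDKN1B had 8.63 FPKM and CDKN1C 1.61 FPKM in H24 replicate 3, the lowest of the 9 libraries for each. CDKN2A was not found by its name.

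In H8 over NC, 5 of the 112 regulators and partner genes tested were up-regulated and none was down-regulated, against 5.11% and 2.27% of all genes tested. They were TOB1, an anti-proliferative protein, at 1.03 (SE 0.21, adjusted p = 0.187, edgeR), CKS2, a CDK subunit, at 1.68, HELLS, a chromatin remodeller, at 1.29, E2F2 at 1.60 and CDCA2 at 1.33. TOB1 had 35.8, 43.5 and 59.0 FPKM in H8 and 13.6 to 28.9 in the other 6 libraries. In H24 over H8, 4 of 116 were up-regulated (CDKN2B, CCND3, CCNF and ZWINT) and 3 down-regulated (CCND2, TOB1 at -1.48 and HELLS at -1.26), against 7.22% and 3.05% of all genes tested. CCNF, cyclin F, had 4.74 FPKM in H24 replicate 3 against 0.103 to 0.720 elsewhere.

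More abundant genes overlapped or lay within 5000 bases of 17 of the 35 cell cycle genes (AURKB, CCNB1, CCNE2, CDC20, CDC45, CDC6, CENPE, DLGAP5, GINS2, HMMR, KIF20A, MCM7, NUSAP1, PCNA, TPX2, TYMS and UBE2C). Of the 17, 10 overlapped such a gene on the opposite strand, and without strand in the counting, reads from the shared stretch cannot be told apart. The other 7 lay beside theirs without overlap. Of the other 18, 16 were highest in H24 replicate 3. These 18 had a median log2 fold change of 0.68 for H24 over NC with no call, and 0.48 for H24 over H8 with PLK1 called. Without H24 replicate 3 the medians were -0.16 and -0.37.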

How the data were processed

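Poly(A) RNA of abdominal aorta (RNA integrity number above 7.0) was sequenced by the authors as paired-end reads, in 9 libraries. Per the methods, the authors mapped reads with HISAT2 2.0 to Sscrofa11.1 and obtained FPKM with StringTie 1.3.0. The submitters' processing notes also name Bowtie 0.12.2 and a mouse build, while the gene identifiers and coordinates of the table are those of pig. The deposited table gives, for each gene and library, FPKM and an expected count, a whole number not scaled for depth. How these counts were derived, the annotation release and the strand setting are not given in the sources used here. All per-sample columns were used (0 left out). The extraction protocol speaks of an adipose type, and the tissue labels, which give the abdominal aorta, were followed.

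Libraries were grouped by their labels. The members and lists were chosen with earlier results of these data known. Counts were fitted with edgeR 4.0.16 in R 4.3.3 (TMM, estimateDisp, glmQLFit and glmQLFTest, two-sided), over the 6 libraries of a comparison and every gene whose mean FPKM there reached 0.1, with Benjamini-Hochberg adjustment over these genes. Called genes had a log2 fold change beyond 1 and p under 0.05. The standard error is the log2 fold change divided by the root of its F statistic. Summaries used Python 3.11.15 and pandas 2.3.3. The fit was tested on simulated data in which no library stood apart. That test therefore does not cover a library such as H24 replicate 3. All members could be named. Every library was given for 6 fixed genes, for called members (at most 8 with the smallest p per comparison), and for the 3 highest and 3 lowest by mean FPKM. Named regulators were the called ones (at most 6 per direction and comparison) and 9 fixed ones, and 7 markers were fixed. Other members and lists were described by role after values were seen.

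Alternatives were median-ratio and library-size scaling, no filter and a filter at 1 FPKM, one fit of all 9 libraries, a block for the replicate number, DESeq2 1.42.0, limma 3.58.1 on log2(FPKM + 0.1) and log2(FPKM + 1), rows of one name summed, and each library left out in turn. Adding the 6 genes listed by identifier and leaving out members with a more abundant gene within 5000 bases were chosen after seeing the data. Promoter motifs, planned at first, were not analysed here.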

Additional observations from a re-analysis of the deposited data

Results flagged for a closer look

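For 2 of the 35 genes the difference of H8 from NC and that of H24 from NC were not alike, tested as H24 over H8 with edgeR's quasi-likelihood test. For PLK1 the log2 fold change of H24 over H8 was 1.53 (adjusted p = 0.341), with each of the 3 H24 libraries above each H8 library. For DLGAP5 it was 1.89 (adjusted p = 0.341), and the libraries of the 2 groups overlapped. Both were called higher, 5.71% of the 35 genes, while 7.22% of all genes tested were, so the share was not above that of the table. Neither passed the adjusted threshold, and neither was called without H24 replicate 3.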

How the results depend on the processing

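The number of the 35 genes called higher for H24 over NC was 1. It was 0 with a filter at 1 FPKM, which left 19 of the 35 genes and removed DLGAP5 untested. With limma on log2(FPKM + 1) it was also 0. The replicate block gave 2 (DLGAP5 and NCAPG). DESeq2 gave 3 (BUB1B, DLGAP5 and HMMR), where 1 passed the adjusted threshold. Leaving out single libraries gave 1 to 6. Over the table, 1475 of 14828 genes were called higher, against 1079 of 11346 with the filter at 1 FPKM. They were 714 with limma on log2(FPKM + 1), 1114 with the block and 1548 with DESeq2. Leaving out single libraries gave 946 to 1795 over the table. For H8 over NC the count of cell cycle genes called higher was 0, it was 1 with the replicate block (DLGAP5), and leaving out libraries gave 0 to 3 higher and 0 to 1 lower. Over the table, 733 of 14336 genes were called higher, 639 with the block. Leaving out libraries gave 569 to 796 higher and 251 to 448 lower over the table. For H24 over H8 the count of cell cycle genes called higher was 2. It was 1 with the filter at 1 FPKM, the replicate block and limma at either pseudocount, and 3 with scaling by library size (CDC45 added). The filter at 1 FPKM again removed DLGAP5 untested. Leaving out libraries gave 0 to 3 higher and 0 to 1 lower. Over the table, 1068 of 14788 genes were called higher, against 796 of 11278 with that filter, 800 with the block and 1447 with scaling by library size. With limma they were 1076 and 517 at pseudocounts of 0.1 and 1. Leaving out libraries gave 547 to 1407 higher and 248 to 684 lower over the table. Without H24 replicate 3, the regulator genes called for H24 over H8 went from 4 to 2 higher and from 3 to 5 lower. Over the table the calls went from 1068 to 547 higher and from 451 to 365 lower. Among the 18 genes with no more abundant neighbour, 16 rather than 29 were highest in H24 replicate 3, since fewer genes were counted. The causes of the other shifts were not tested. Same-numbered libraries of 2 groups deviated from their group means with correlations of -0.08 to 0.09 across 11239 genes, so the numbers were not treated as pairs. Scaling by library size moved the median of all genes tested to -0.13 for H8 over NC and to 0.24 for H24 over H8, against 0.01 and 0.04. At 3 libraries a group, the lowest genes rest on few counts, which limits precision: MELK had 4 to 57 in 8 of the 9 libraries.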
